A study of Homo sapiens with 2 samples.

Results

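The genes of the hormone receptors and of the luminal factors of breast epithelium were examined for KDM1B peaks in the MDA-MB-231 line, cultured breast cancer cells of the triple-negative kind, which is defined by the lack of oestrogen and progesterone receptors and of HER2. The 9 genes were chosen by name, as genes that define the luminal, hormone-responsive breast tumours, and make up 9 of the 19970 protein-coding genes annotated on chromosomes 1 to 22 and X. For each, every listed peak whose midpoint fell inside the gene or no more than 5 kb outside it was taken, which gave 43 of the 78536 peaks in all. Chromatin from cells stably expressing 3xFLAG KDM1B from a retroviral vector was precipitated with an anti-FLAG M2 antibody in 1 library, and 1 input library from cells of the same genotype served as its control. The deposited values are log2 ratios of ChIP over input, 1 a peak, and come with no counts, so depth is unknown. With 1 library in each group no value has a replicate error, and no difference below has a test. No library from cells without the tag and no expression data were analysed here, so that these genes are largely silent in this line could not be checked from the values.

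ESR1 and ESR2 encode the oestrogen receptors alpha and beta, and PGR the progesterone receptor, all nuclear receptors that bind DNA once they bind their hormone. In luminal cells FOXA1 and GATA3 are known to open and mark the enhancers that the oestrogen receptor uses. XBP1, a factor of the unfolded protein response, the ETS factor SPDEF, the secreted trefoil peptide TFF1 and the vesicle adaptor MLPH (melanophilin) are widely used markers of that state. KDM1B (LSD2) is a flavin-dependent demethylase of histone H3, known to act at promoters as well as within transcribed genes.

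The sequences shown here are the RefSeq windows (GRCh38.p14) from 250 bases before to 50 after an annotated start, for 5 genes with a peak on such a window and, for contrast, for PGR, which had none. Bases inside a listed peak are in capitals, with peak starts taken as counted from 0, a choice that can move a border of the capitals by 1 base. The windows are chr6:151808857-151809156 (plus strand, the most downstream of 6 ESR1 starts), chr11:101129014-101129313 (minus strand, PGR), chr10:8045083-8045382 (plus strand, the most upstream of 6 GATA3 starts), chr14:37595200-37595499 (minus strand, FOXA1), chr22:28800520-28800819 (minus strand, XBP1) and chr2:237486160-237486459 (plus strand, MLPH).
ESR1: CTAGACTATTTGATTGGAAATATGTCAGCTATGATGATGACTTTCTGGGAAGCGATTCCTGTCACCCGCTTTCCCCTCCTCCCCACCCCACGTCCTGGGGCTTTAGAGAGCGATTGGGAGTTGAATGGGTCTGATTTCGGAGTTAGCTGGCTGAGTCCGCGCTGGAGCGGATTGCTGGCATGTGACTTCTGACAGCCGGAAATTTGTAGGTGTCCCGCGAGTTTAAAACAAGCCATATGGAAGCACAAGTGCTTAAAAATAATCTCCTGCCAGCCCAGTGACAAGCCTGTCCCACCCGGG
PGR: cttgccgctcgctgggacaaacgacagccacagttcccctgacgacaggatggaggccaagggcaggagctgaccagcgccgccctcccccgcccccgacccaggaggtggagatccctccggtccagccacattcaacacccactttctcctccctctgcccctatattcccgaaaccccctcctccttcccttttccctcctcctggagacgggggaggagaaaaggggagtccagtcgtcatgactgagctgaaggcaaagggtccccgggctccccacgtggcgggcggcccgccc
GATA3: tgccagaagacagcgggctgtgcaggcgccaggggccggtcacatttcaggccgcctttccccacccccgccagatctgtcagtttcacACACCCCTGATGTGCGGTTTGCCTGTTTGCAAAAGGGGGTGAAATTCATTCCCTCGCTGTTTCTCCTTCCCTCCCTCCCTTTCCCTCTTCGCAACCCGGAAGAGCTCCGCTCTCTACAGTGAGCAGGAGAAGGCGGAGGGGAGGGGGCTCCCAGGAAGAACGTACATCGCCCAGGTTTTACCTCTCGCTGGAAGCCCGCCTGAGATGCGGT
FOXA1: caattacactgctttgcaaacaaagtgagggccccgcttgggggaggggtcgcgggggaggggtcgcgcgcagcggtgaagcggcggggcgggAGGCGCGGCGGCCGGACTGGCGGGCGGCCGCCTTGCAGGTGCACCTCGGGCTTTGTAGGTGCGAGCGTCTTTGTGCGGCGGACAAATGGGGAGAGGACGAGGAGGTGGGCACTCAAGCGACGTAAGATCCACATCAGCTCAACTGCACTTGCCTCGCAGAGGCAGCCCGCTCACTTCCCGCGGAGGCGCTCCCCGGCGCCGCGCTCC
XBP1: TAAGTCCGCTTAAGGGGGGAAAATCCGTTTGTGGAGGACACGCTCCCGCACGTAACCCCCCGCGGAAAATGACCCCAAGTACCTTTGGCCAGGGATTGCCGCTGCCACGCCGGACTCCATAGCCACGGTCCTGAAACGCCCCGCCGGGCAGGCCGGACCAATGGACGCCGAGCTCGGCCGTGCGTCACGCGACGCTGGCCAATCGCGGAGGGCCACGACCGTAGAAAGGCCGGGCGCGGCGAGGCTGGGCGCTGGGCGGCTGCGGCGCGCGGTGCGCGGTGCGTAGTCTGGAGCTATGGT
MLPH: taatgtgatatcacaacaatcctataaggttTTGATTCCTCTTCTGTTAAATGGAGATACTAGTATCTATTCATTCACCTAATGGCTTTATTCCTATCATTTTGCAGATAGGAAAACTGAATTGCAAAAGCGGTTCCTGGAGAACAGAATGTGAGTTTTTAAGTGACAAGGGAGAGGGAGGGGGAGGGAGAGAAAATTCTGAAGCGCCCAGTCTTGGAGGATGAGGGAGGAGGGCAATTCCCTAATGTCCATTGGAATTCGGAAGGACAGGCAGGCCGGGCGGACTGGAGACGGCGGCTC

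Peaks were found at 7 of the 9 genes, beside 67.5% of all protein-coding genes, so the count alone does not set the luminal genes apart. PGR and TFF1 had none. The other genes ranged widely, with 2 peaks each at ESR1, XBP1 and SPDEF, 3 each at ESR2 and GATA3, 6 at FOXA1 and 25 at MLPH. MLPH alone therefore held more peaks than the other 8 genes together, which held 18, though not once peaks within 1 kb were joined. Since long genes offer more room for peaks, the share of each gene and its 5 kb flanks that lay under peaks was ranked among the 500 protein-coding genes nearest in length, with ties counted at their midpoint.

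**Figure D1:**
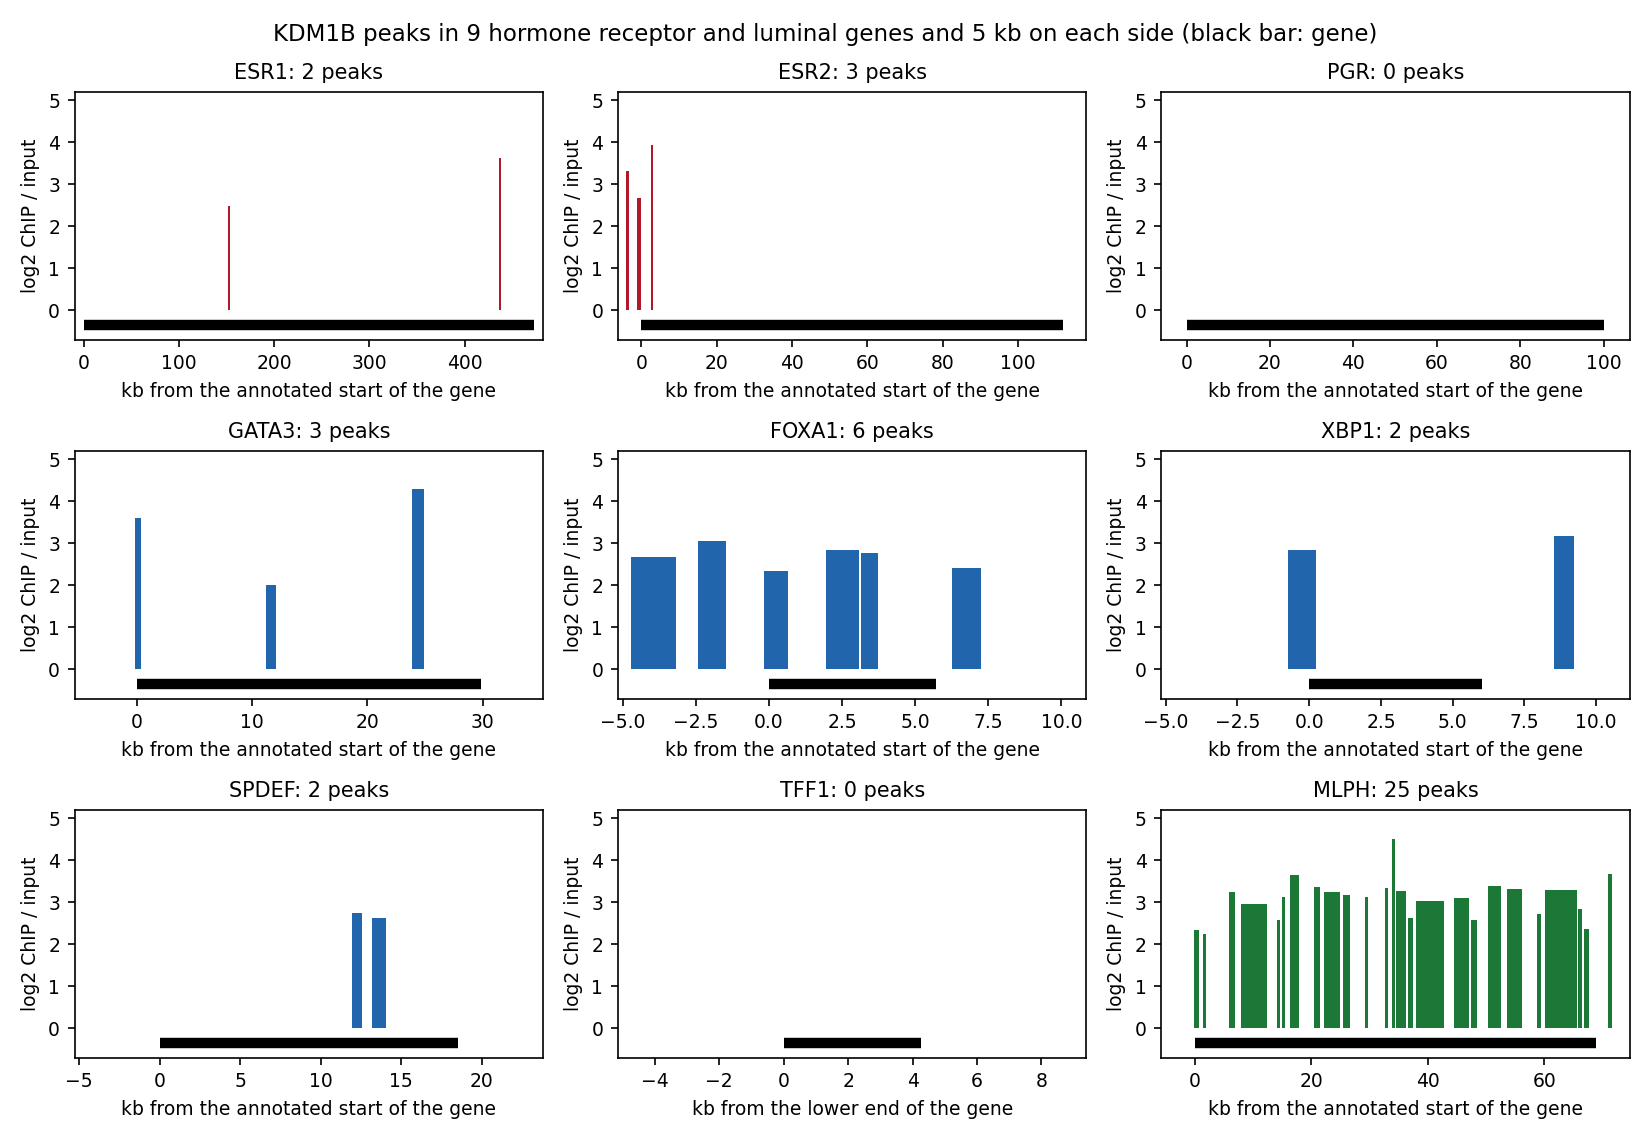
Each panel shows 1 gene with 5 kb on each side: the horizontal axis is the distance in kb from the most upstream annotated start in the direction of transcription (from the lower end for TFF1), and each bar is 1 peak, drawn as wide as the peak (widened to stay visible in long genes) and as high as its log2 ratio of ChIP over input. PGR and TFF1 are empty, ESR1 holds 2 isolated peaks, and MLPH is filled from end to end by 25.

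The hormone receptor genes carried few peaks over long spans. ESR1 (chromosome 6, 151656672 to 152129619, hg38) is 473 kb long in this annotation and held 2 peaks, which covered 1.37 kb, or 0.284% of the gene with its flanks. The median among genes of like length was 0.267%, which puts ESR1 at the 51st percentile. The peak at 151808733 to 151809516 had a log2 ratio of 2.49 and its midpoint lay 17.5 bp after the sixth annotated start, the one whose window is printed above in capitals throughout. That ratio stands at the 19.6th percentile of the whole list. The other, at 152093799 to 152094386, had a higher ratio of 3.62 and lay deep in the gene, 285 kb beyond that start. The 284 kb between the 2 peaks held none. The other 5 annotated starts of ESR1, which lie upstream, had no peak on their windows. The longest peak-free stretch that reached into ESR1 measured 315 kb, ended at the start peak and also held the whole of CCDC170, the next coding gene upstream. CCDC170 still had 1 peak within 5 kb of it (26.2nd percentile). SYNE1, which overlaps the other end of ESR1, had 7 peaks (82.4th percentile).

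ESR2 (chromosome 14, 64226707 to 64338613, minus strand, 112 kb) had all of its 3 peaks at its 5′ end. The peak nearest its start, at 64338689 to 64339653, had a log2 ratio of 2.67 and a midpoint 558 bp before the most upstream start. Beside it lay a peak of 3.95 at 64335434 to 64336176, 2808 bp into the gene, and one of 3.32 at 64341968 to 64342514, 3628 bp before the start. Peaks covered 1.85% of the ESR2 window, against a median of 1.59% for genes of like length (52.6th percentile). From the peak inside ESR2 the next 236 kb held no peak, a stretch that took in 97.2% of the gene. On the other side the 100 kb upstream of ESR2 had 33.2% of its sequence under 22 peaks, and MTHFD1, a folate pathway gene 49.7 kb away, had 61.1% under 34 peaks.

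PGR (chromosome 11, 101029624 to 101129813, minus strand, 100 kb) had no peak in the gene or within 5 kb. Of the 500 genes of like length, 104 (20.8%) were without a peak in the same way, and the median coverage among them all was 2.11%. The nearest peaks lay 104 kb beyond its 3′ end and 631 kb beyond its 5′ end. This peak-free stretch of 835 kb ranked 580th of 78481 between neighbouring peaks, where the median was 2.56 kb, and it also contained the cation channel gene TRPC6. The 1 Mb around the middle of PGR held 7 peaks, against a median of 45 around protein-coding genes. Its nearest coding neighbour ARHGAP42, however, 35.7 kb away on the 3′ side, had 6 peaks (78.2nd percentile).

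The luminal transcription factor genes all had peaks, with coverage that ran from the middle of the genes of like length to above the 90th percentile. FOXA1 (chromosome 14, 37589552 to 37595249, minus strand, 5.70 kb) encodes a forkhead pioneer factor and had 6 peaks, which covered 38.2% of its window. The median for genes of like length was 4.94%, and 48 of the 500 had more coverage (90.4th percentile). In the direction of transcription its peaks had log2 ratios of 2.68 and 3.07 before the start, 2.34 over the start, 2.84 and 2.76 within the gene and 2.42 beyond its end. The pair before the start lies inside TTC6, a coding gene 0.38 kb from FOXA1, and 5 of the 6 fall within 5 kb of TTC6 or inside it, so these peaks cannot be assigned to either gene alone. All 6 ratios were moderate, the highest at the 55.2nd percentile of the list.

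The region around FOXA1 was sparse. The 1 Mb around it held 8 peaks, including the 6 counted here. Of its neighbours, MIPOL1, 354 kb long, had none, while TTC6 had 7 (78.2nd percentile), 5 of them shared with FOXA1. Among genes matched also on the number of genes within 500 kb, its coverage stood at the 99th percentile, and in that comparison 32.4% of genes had a peak.

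GATA3 (chromosome 10, 8045333 to 8075198, 29.9 kb), a zinc finger factor of luminal cells and of T cells, had 3 well separated peaks. The peak at 8045171 to 8045671 had a log2 ratio of 3.60 and covered the most upstream start. The middle one, at 8056565 to 8057442, was among the weakest of the whole list with 2.004 (2.50th percentile), and the third, at 8069239 to 8070279, was among the stronger with 4.30 (91.6th percentile). Coverage was 6.06%, against a median of 6.37% (49th percentile), so GATA3 lay in the middle of genes of its length. Beyond the last peak the next 235 kb held none.

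XBP1 (chromosome 22, 28794560 to 28800569, minus strand, 6.01 kb) had 2 peaks, and the midpoint of neither lay inside the gene. The peak at 28800345 to 28801323, with a log2 ratio of 2.84, covered its most upstream start, and its midpoint lay 265 bp upstream of it. The other, at 28791359 to 28792041 with 3.19, lay 2.52 kb beyond the 3′ end and 2.06 kb from the neighbouring gene CCDC117, so it counts for both genes. The 8.30 kb between them, free of peaks, took in 96.3% of the gene. Coverage of the window was 10.4% against a median of 4.92% (61.4th percentile).

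SPDEF (chromosome 6, 34537802 to 34556329, minus strand, 18.5 kb) was the only one of the factor genes with no peak at its start. Its 2 peaks, 578 bp apart, lay in the gene with midpoints 12274 and 13590 bp from the start and log2 ratios of 2.75 and 2.64. Both were below the list's median of 2.99. Coverage was 5.18% against a median of 4.77% (52nd percentile).

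TFF1 and MLPH, the genes for the secreted and the cytoplasmic marker, differed widely. TFF1 (chromosome 21, 42362282 to 42366535, 4.25 kb), a classical oestrogen-induced gene, had no peak, as did 206 of the 500 genes of like length (41.2%), so a gene this short without a peak was common. The nearest peaks were 99.0 kb and 308 kb away. The 412 kb without a peak held 7 coding genes, among them the other trefoil genes TFF2 and TFF3 and the protease gene TMPRSS3, and ranked 1353rd of 78481 such stretches.

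MLPH (chromosome 2, 237486410 to 237555322, plus strand, 68.9 kb) encodes melanophilin, which links RAB27A on melanosomes to the motor protein myosin Va. Its 25 peaks covered 40.4 kb, or 51.2% of the gene with its flanks, against a median of 2.37% for genes of like length. Only 22 of these 500 genes had more coverage (95.6th percentile), and only 16 had more peaks. The peaks ran along the whole gene: the longest interval between neighbours was 4.05 kb, and 13 of the 24 intervals were 1 kb or less. Of the 25 peaks, 7 were 2 kb or wider and made up 24.95 kb of the total, the widest being 5514 bp (237546471 to 237551985, log2 ratio 3.28).

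The ratios in MLPH were even rather than high. Their median was 3.14 with quartiles of 2.72 and 3.31, against 2.99 with quartiles of 2.58 and 3.52 for the list, and 16 of the 25 lay above the list's median. The pair at the gene's start had the lowest values, 2.24 and 2.35, and the highest was 4.52 at 237520212 to 237520768. That strongest peak and the next 2 downstream touch MTND5P46 and MTND4P40, nuclear copies of mitochondrial genes, so reads there may have near-identical matches elsewhere and these 3 peaks are uncertain. Of 466 such copies in the annotation 8 were touched by a peak, and without the 3 peaks MLPH kept 22, with 47.2% covered (95.4th percentile).

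The dense peaks of MLPH ended near its borders. Within 100 kb, 5.91% of the sequence on the side of its start and 1.93% beyond its end lay under peaks, against 57.3% of the gene itself. Of its coding neighbours, the collagen gene COL6A3 had 1 peak, while PRLH and RAB17, 11.3 and 19.0 kb beyond its end, had none by midpoint. LRRFIP1, 72.3 kb away, again had 25 peaks over 154 kb.

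**Figure D2:**
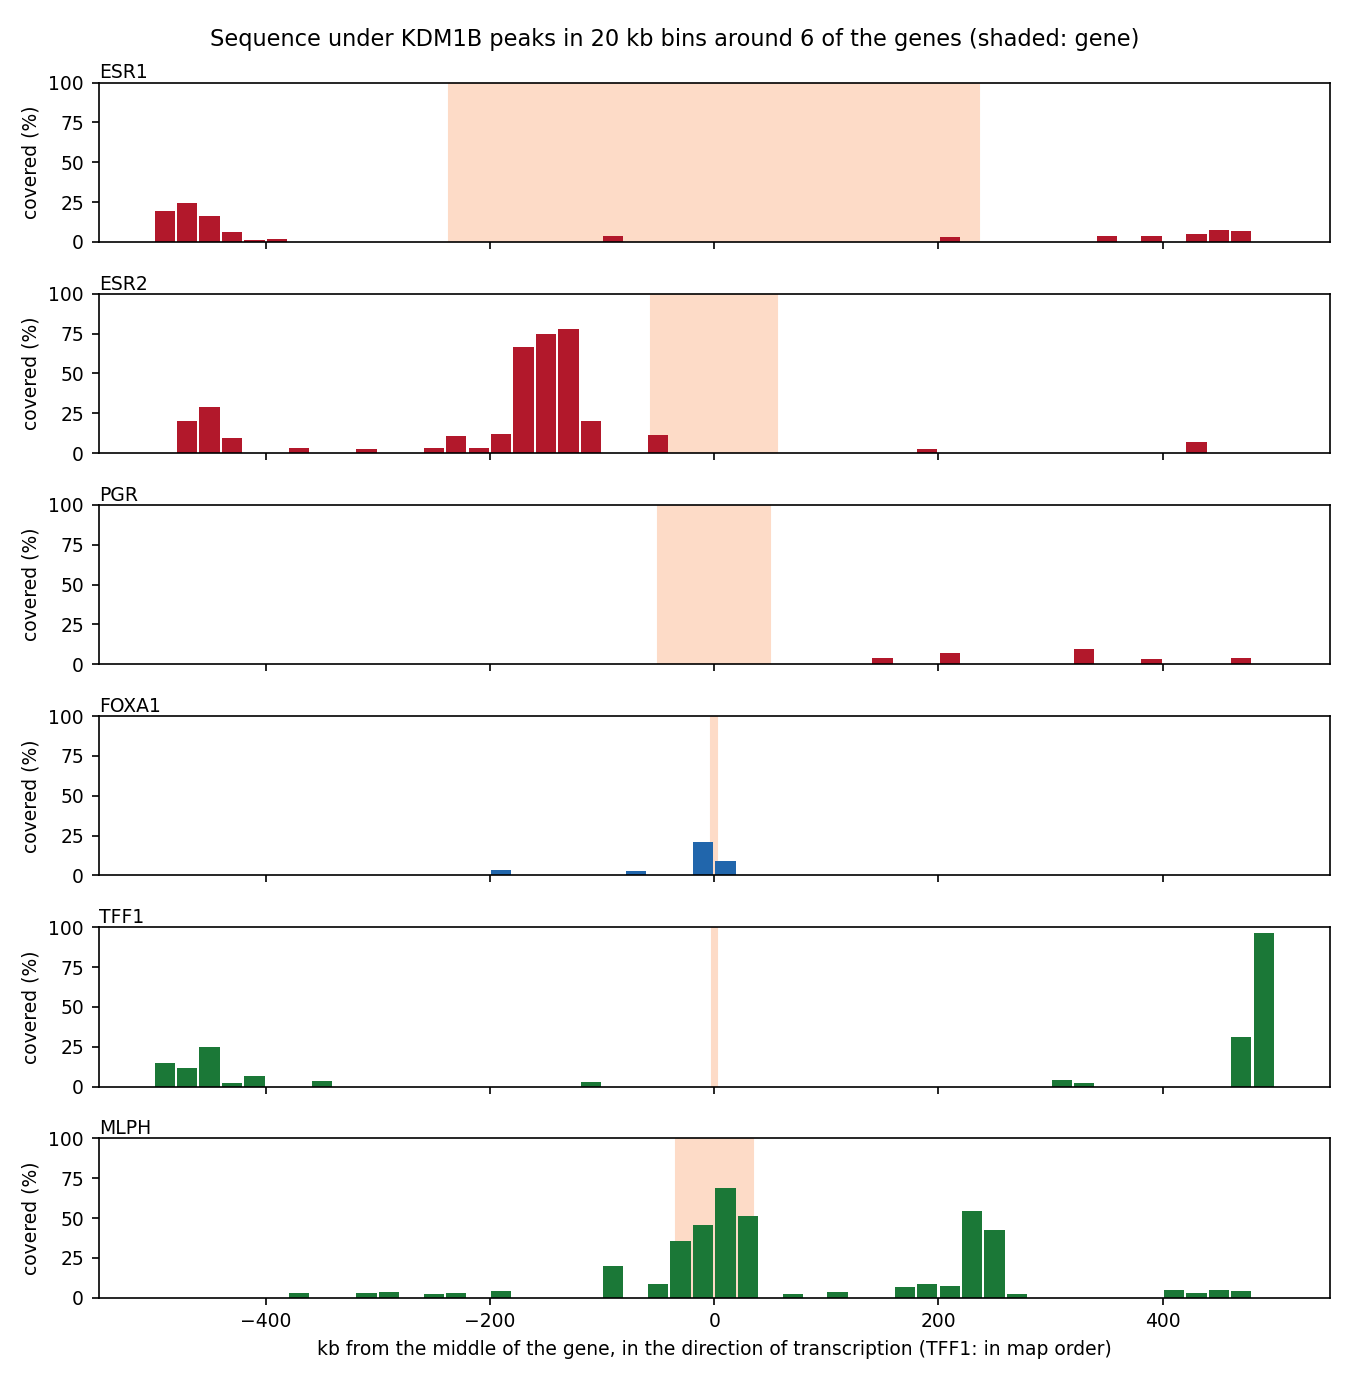
For 6 of the genes, bars give the percentage of sequence under KDM1B peaks in 20 kb bins, from 500 kb before to 500 kb after the middle of the gene (horizontal axis, kb; shading marks the gene). Bars fill the span of MLPH and fall off at its borders, and FOXA1 has bars in a mostly empty region. TFF1 lies in an empty stretch of 412 kb. PGR lies in one of 835 kb, which runs past the left edge of its panel, with low bars from the bin at 150 kb onwards.

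**Figure D3:**
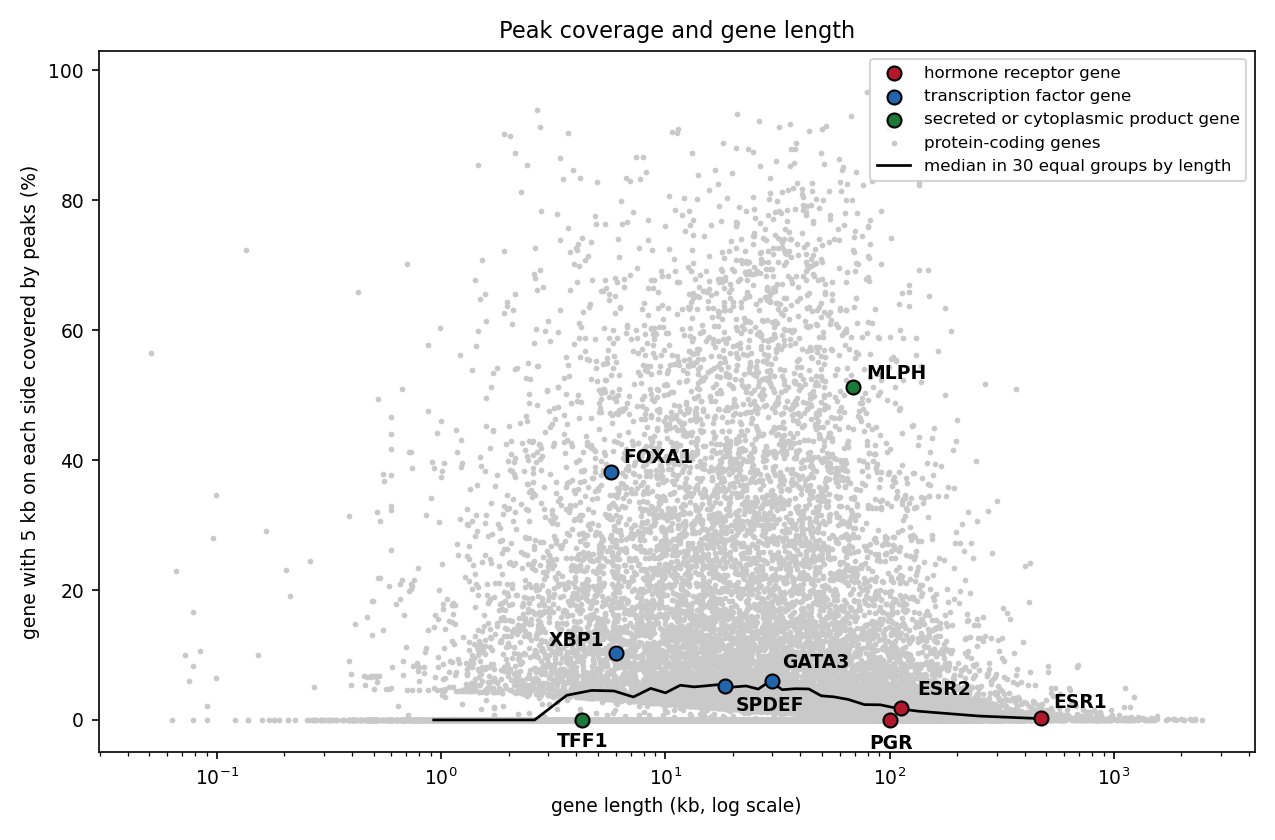
The percentage of each gene with 5 kb on each side under peaks (vertical axis) is plotted against gene length in kb (log axis) for the 9 genes (large points) and for all protein-coding genes (small grey points), with a line for the median in 30 equal groups by length. MLPH at 51.2% and FOXA1 at 38.2% lie far above the line, PGR and TFF1 lie at 0, and the other 5 lie between 0.284 and 10.4%.

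Annotated starts could be matched for 8 of the 9 genes, all except TFF1. A peak overlapped at least 1 start window in 6 of these 8 genes, against 34.4% of the 15811 protein-coding genes with such an entry. Several of these genes have many annotated starts, and among genes with as many starts as each of them the share averaged 46.1%. Counted over windows, 8 of 26 were overlapped, or about the 30.5% found over all 22131 windows. By the wider measure of a midpoint within 1 kb of a start, 6 of the 8 genes had a peak, against 39.8%. PGR and SPDEF were the genes without one by either measure.

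In 4 of the 6 genes with a peak on a start window, that peak was the weakest of the gene. ESR1 and XBP1 have only 2 peaks each and ESR2 only 3, so a lowest rank there says little. The peak on the start window had the lowest ratio of all the gene's peaks at ESR1, ESR2, FOXA1 and XBP1, and the next to lowest at MLPH (2.35), while at GATA3 (3.60) it was the middle one of 3. These values ranged from 2.34 to 3.60. In the whole list, 5180 peaks on start windows of protein-coding genes had a median log2 ratio of 2.58, against 2.99 for 73324 others. That comparison pools peaks over genes, and the rank of start peaks within their own gene was not counted over all genes.

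The overlapped windows of these genes held 7 to 40 CpG dinucleotides (median 31.5 of 8 windows), and the windows without a peak 3 to 36 (median 15.5 of 18). Over all windows, peaks lay on 49.7% of those with 31 or more CpG, on 42.0% of those with 21 to 30, on 23.6% of those with 7 to 20 and on 4.54% of those with fewer. The printed windows of XBP1 (40 CpG) and FOXA1 (34) belong to the CpG-rich class, those of PGR (17), GATA3 (16), ESR1 (12) and MLPH (7) to the second lowest. The MLPH window not printed, which the same peak also overlapped, held 34 CpG and so belongs to the CpG-rich class. In the PGR window, with a G+C content of 66.0%, no base lay under a peak, while the ESR1 window, with 52.0%, lay wholly under one.

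Motifs of factors named here were looked for in these windows, and their counts were small, as were their shares of all windows. The oestrogen receptor core motif AGGTCA, read on both strands, was found in 11.9% of all windows and in 3 of the 26, all of ESR2 and none under a peak, the 2 that overlap each other sharing the match. The GATA motif AGATAA (7.88% of all windows) and the forkhead motif TGTTTAC (2.85%) were found in none of the 26. No match says only that these letters are not in these windows.

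Compared with the whole list, the 43 peaks were ordinary in strength and width. Their median log2 ratio was 3.07, against 2.99 for all peaks, and 23 lay above that median. Without MLPH the median was 2.80, and 7 of 18 lay above. Median widths were 888 bp for the 43 peaks and 804 bp for all. Only the third GATA3 peak (4.30) and the strongest MLPH peak (4.52) exceeded a log2 ratio of 4. A step of 2.64 was derived from the list's most common linear ratio, so that nearly all of its highest ratios are whole multiples of it. None of the 43 linear ratios was a whole multiple of this step, against 12.4% of all peaks (tolerance 1e-05 on the ratio divided by the step). Ratios with a single input read could take this form, which could not be checked without counts.

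Genes that act with these members were read in the same way, from 4 lists with the share of genes of like length that had a peak as background. Of 16 cofactors and partners of the oestrogen receptor, 15 had a peak, against 77.1% of genes of like length, and their median coverage stood at the 88.7th percentile. Near the top was the Mediator subunit MED1, with 10 peaks over 70.3% of its window (98.2nd percentile). The coactivator gene NCOA1 (28.8th), with 1 peak, was the lowest of those with a peak, and 1 gene had none.

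Other luminal and oestrogen-responsive genes had a peak nearly as often as genes of like length. Of 30 such genes 19 (63.3%) had a peak, against 70.1% of genes of like length, and their median percentile was 40. The cyclin gene CCND1 was highest, with 6 peaks over 56.3% of its window (94.2nd), then the keratin gene KRT18 (79.8th), while the prolactin receptor gene PRLR (38.4th) and MYB (29th) were the lowest of those with a peak. The median percentile of the 9 genes was 52, with 7 of 9 holding a peak against an average of 69.6% of genes of like length.

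Paralogs and pathway partners of the members had a peak in 14 of 21 cases, against 70.8% of genes of like length, with a median percentile of 33.4. FOXA2, the forkhead paralog of FOXA1, was the highest, with 3 peaks over 42.8% of its window (94th), followed by the orphan receptor gene ESRRA (81.6th). GATA4, a paralog of GATA3 (28.2nd), was near the low end of those with a peak, with 1. The partners of melanophilin were not covered like MLPH: RAB27A and MYO5A, chosen for naming after their values were seen, had 2 peaks each and stood at the 42.4th and 48.8th percentiles.

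Basal and mesenchymal genes, markers of basal-like or mesenchymal breast cancer cells, had a peak in 18 of 20 cases, against 69.9% of genes of like length, with a median percentile of 60.2. The receptor kinase gene AXL had 71.7% of its window covered (97.8th) and the protease gene MMP14 54.8% (97.2nd), while the fibronectin gene FN1 (33.4th) had 1 peak. The lists differ in size and were chosen by hand, TFF3 stands in both the luminal and the paralog list, and the differences between lists were not tested.

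**Figure D4:**
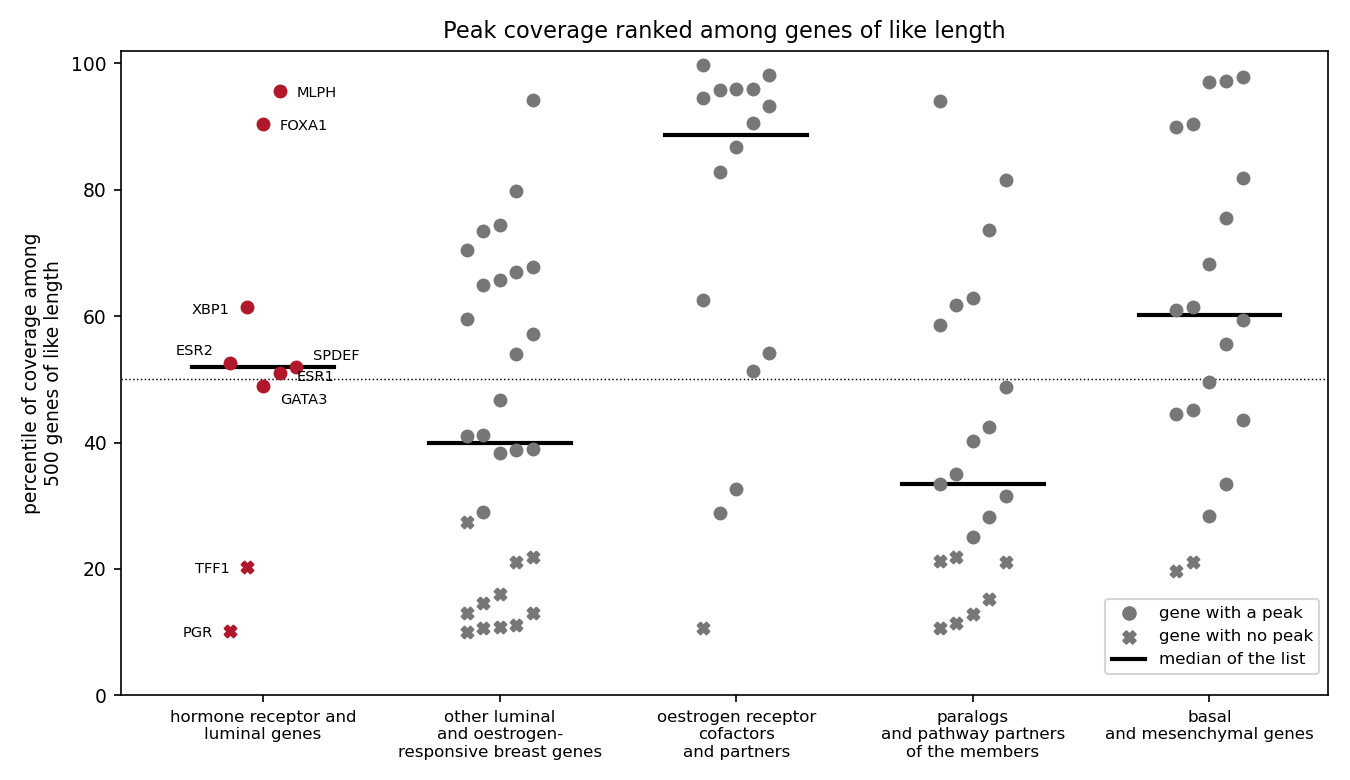
Each point is 1 gene, and the vertical axis gives the percentile of its peak coverage among 500 genes of like length, with the 9 hormone receptor and luminal genes on the left and the 4 other lists to their right (bars mark medians, crosses genes without a peak, the dotted line the 50th percentile). The 9 genes have a median of 52 and reach from 10.2 (PGR) to 95.6 (MLPH), while the receptor's cofactors cluster near the top with a median of 88.7.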

How the data were processed

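The deposited peak list compares 1 KDM1B ChIP library with 1 input library of MDA-MB-231 cells. Trim Galore 0.4.5, Bowtie2 2.2.9 and hg38 are named in the submitters' processing notes. The peak calling method, thresholds and depth scaling were not given in the sources used here. The authors' values are log2 ratios of ChIP over input, a scale settled from the values; starts and ends are printed as deposited, and it is not given whether starts are counted from 0 or from 1. Ratios served only to describe and rank peaks within this list.

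Gene spans, starts and windows came from RefSeq tables of GRCh38.p14, with all 9 symbols matched in the gene table and 8 in the table of windows. A peak counted for a gene when its midpoint lay in the gene or within 5 kb, and coverage is the share of that window under peaks. Percentiles are over the 500 protein-coding genes nearest in log length. Genes named from each list are the 2 highest and the 2 lowest with a peak, some of which are not reported here. The members and lists were chosen with earlier results of these data known. Counting was tested on simulated peaks, with Python 3.11.15, pandas 2.3.3 and numpy 2.4.6. Alternatives were other flanks, any overlap of 1 bp, peaks above the median ratio, joined peaks, 200 or 1000 genes of like length, and matching on gene density.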

Additional observations from a re-analysis of the deposited data

How the results depend on the processing

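Of the 9 genes, 6 or 7 had a peak under each alternative run: XBP1 lost its peaks when the gene alone was counted, and SPDEF when only the 37842 peaks above the list's median ratio were. PGR and TFF1 had none under any of them. The share of all protein-coding genes with a peak moved too, from 67.5% to 58.2% for the gene alone, 62.6% with 1 kb, 71.3% with 10 kb, 67.9% by any overlap and 54.8% with peaks above the median ratio. The sum of 43 peaks came to 27 after joining peaks within 1 kb, and to 23 with peaks above the median ratio. After joining, MLPH had 12 and no longer held more than the other genes together. MLPH (92.5 to 98), FOXA1 (70.8 to 99) and XBP1 (52.6 to 69.2) stayed above the middle of genes of like length under each alternative. PGR (9.25 to 18.7) and TFF1 (17.8 to 29.9) stayed below it. For PGR and TFF1 this was fixed in advance, since genes without coverage share the lowest rank and ties count at their midpoint. ESR1 (31.4 to 55), ESR2 (40.6 to 58.8), GATA3 (47 to 67.4) and SPDEF (21 to 60.2) changed sides, so their place above or below the middle depends on the setting, and 4 to 6 of the 9 genes lay above it. The removal of peaks at mitochondrial gene copies was chosen after seeing the data. No paired analysis was possible because each group has 1 library. Without read counts, peaks too weak for the list cannot be told apart from no binding.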
